A study of Mus musculus with 4 samples.

Results

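Among barcodes of dissociated mouse tumours without any transcript of the leukocyte gene Ptprc or of the T cell receptor complex, those with the most heat-shock transcripts are called the heat-shock-high barcodes here. A barcode had to hold at least 5000 UMIs (unique molecular identifiers, each standing for 1 captured transcript) and 0 UMIs over the 7 genes Ptprc, Cd3e, Cd3d, Cd3g, Trac, Trbc1 and Trbc2. Its score was the number of UMIs of Dnajb1, Hspa1a and Hspa1b per 10000 UMIs, and the members were the barcodes at or above the 95th percentile of both libraries pooled. This gave 808 members of 16143 barcodes passing that gate, and of 18778 barcodes in all. The other 15335 barcodes of the gate are called the rest.

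The tumours were grown from MC38, a mouse colon adenocarcinoma line, in wild-type mice and in FOXP3 humanized mice that were 10 weeks old. The animals received no treatment, and tumours were taken on day 20 after inoculation. Cells were put through a Percoll gradient meant to enrich immune cells and captured on a droplet platform, with 1 cDNA library per genotype, so that genotype, library and mouse cannot be told apart. The sources used here give neither the number of animals behind each library nor the humanized part of Foxp3.

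The heat-shock response is the transcriptional answer of a cell to misfolded protein in the cytosol. Heat-shock factor 1 is held inactive by chaperones, and when these are occupied by unfolded clients it forms trimers and binds heat-shock elements, inverted repeats of the unit nGAAn, before its target genes. The targets encode HSP70 proteins, which hold and refold clients, the J-domain proteins that deliver clients to HSP70, nucleotide exchange factors that release them, HSP90 with its own co-chaperones, and small heat-shock proteins that keep clients soluble. The response is known from heat, proteotoxic drugs, heavy metals and oxidants, and tumour cells often run part of it. Dissociation of tissue at warm temperature is also known to switch it on in single-cell preparations. Dnajb1 is a J-domain partner of the stress-inducible HSP70 proteins, which Hspa1a and Hspa1b encode.

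The 2 HSP70 genes of the score were near copies of each other in the stretches compared here. Their coding sequences differed at 8 of 1923 aligned bases, or 99.58% identity, and the 250 bases before their starts differed at 3 positions. The untranslated parts of their transcripts were not compared, and the sources used here do not say how reads that fit both copies were assigned. The split between Hspa1a and Hspa1b is therefore uncertain, and their sum is the safer quantity. The upstream sequences of the score's genes, of Hsph1 and of Hspe1 are printed because these genes carry the results below and differ in the heat-shock element letters they hold. They are the 250 bases before the most upstream start in RefSeq, build GRCm38.p6, 5′ to 3′ on the gene's own strand. Capitals mark GAANNTTC or TTCNNGAA, each of which reads the same on both strands.
Dnajb1, chr8:83607925-83608174, strand plus: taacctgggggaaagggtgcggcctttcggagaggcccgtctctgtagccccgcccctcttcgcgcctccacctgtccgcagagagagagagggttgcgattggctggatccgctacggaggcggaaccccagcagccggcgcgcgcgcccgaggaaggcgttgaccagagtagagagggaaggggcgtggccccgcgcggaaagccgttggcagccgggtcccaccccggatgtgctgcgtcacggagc
Hspa1a, chr17:34972157-34972406, strand minus: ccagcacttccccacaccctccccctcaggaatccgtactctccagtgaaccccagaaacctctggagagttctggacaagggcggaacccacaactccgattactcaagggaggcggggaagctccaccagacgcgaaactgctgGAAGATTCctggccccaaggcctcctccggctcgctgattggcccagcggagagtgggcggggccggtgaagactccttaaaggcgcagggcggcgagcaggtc
Hspa1b, chr17:34959239-34959488, strand minus: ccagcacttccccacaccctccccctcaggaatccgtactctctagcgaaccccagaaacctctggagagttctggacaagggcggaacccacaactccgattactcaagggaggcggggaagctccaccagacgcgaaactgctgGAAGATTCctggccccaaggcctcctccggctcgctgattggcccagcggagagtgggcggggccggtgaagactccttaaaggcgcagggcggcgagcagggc
Hsph1, chr5:149636337-149636586, strand minus: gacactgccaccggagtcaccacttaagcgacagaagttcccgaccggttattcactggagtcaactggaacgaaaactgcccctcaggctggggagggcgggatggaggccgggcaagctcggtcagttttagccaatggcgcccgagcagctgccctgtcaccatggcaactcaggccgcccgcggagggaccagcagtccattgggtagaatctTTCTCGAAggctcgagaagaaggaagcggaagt
Hspe1, chr1:55087898-55088147, strand plus: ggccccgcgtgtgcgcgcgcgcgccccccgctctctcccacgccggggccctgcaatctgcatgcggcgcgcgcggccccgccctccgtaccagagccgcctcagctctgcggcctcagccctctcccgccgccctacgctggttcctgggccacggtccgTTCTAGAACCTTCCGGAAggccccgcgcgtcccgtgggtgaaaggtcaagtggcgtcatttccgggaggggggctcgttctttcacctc
The Dnajb1 window held neither motif, the Hspa1a and Hspa1b windows each held 1 match that begins 104 bases before the start, and the Hsph1 window held 1 that begins 33 bases before it. In the Hspe1 window 3 matches overlapped and made up 2 matches of a 3-unit motif, in which GAA and TTC alternate with NN between them. The windows of Dnaja1 and Zfand2a each held 1 match of a 2-unit motif, and those of Bag3, Dnajb4, Atf3, Mt1 and Mt2 held none. Of all 27025 windows in the table, 13.0% held a 2-unit motif and 0.403% a 3-unit motif. Of the 175 genes called higher in members, as defined further on, 120 were matched to a window, and 14 of these (11.7%) held a 2-unit motif, against 9.81% of the 7870 matched measured genes. The absence of these letters from a window says only that they are not there.

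Members made up a slightly larger share of the gate in the wild-type library, and whether the interval of that difference held 0 depended on how depth was handled. In the wild-type library they were 350 of 6606 barcodes, or 5.30% (exact binomial 95% interval 4.77 to 5.87), and in the humanized library 458 of 9537, or 4.80% (4.38 to 5.25). The log2 ratio of the shares, humanized over wild-type, was -0.14 (-0.35 to 0.063). These intervals, and all others here, cover counting error only. It was -0.20 (-0.36 to -0.04) with every barcode thinned to 5000 UMIs and -0.35 (-0.59 to -0.11) among barcodes with at least 10000 UMIs.

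The scores formed 1 falling slope with no gap at the cut. The cut lay at 8.38 per 10000, against a median of 1.54 over the gate, and 17.3% of the rest scored 0. The lowest member scored 8.3786 and the highest barcode of the rest 8.3778. Within 10% of the cut lay 136 members above it and 162 barcodes below it. The members are therefore the upper end of a range, not a separate class. Members' median scores were 11.97 and 11.94, in wild-type and humanized barcodes, the highest score was 66.5, and the rest had medians of 1.42 and 1.44.

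**Figure D1:**
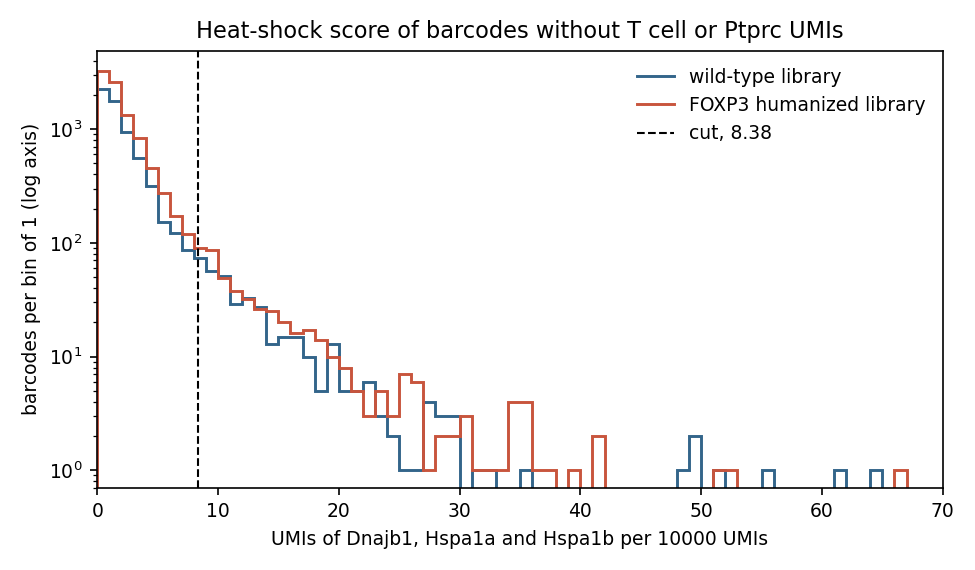
Number of barcodes in bins of 1 score unit (vertical log axis) against the score, the UMIs of Dnajb1, Hspa1a and Hspa1b per 10000 UMIs, with 1 line per library and the cut of 8.38 dashed. Both libraries fall off smoothly through the cut, and the highest barcode scored 66.5.

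The score was mostly Dnajb1. Of 14037 UMIs of the 3 genes in members, 90.8% were Dnajb1, 8.92% Hspa1b and 0.306% Hspa1a. On Dnajb1 alone 659 members (81.6%) passed the cut, on the 2 HSP70 genes alone 10 did, and 361 (44.7%) had no UMI of either HSP70 gene. A member held between 5 and 116 UMIs of the 3 genes, with a median of 14.

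Members held fewer transcripts than the rest. Their median was 12388 UMIs against 17027 in the wild-type library, and 9643.5 against 12618 in the humanized one. Thinned to 5000 UMIs each, members showed a median of 1626 genes against 1808.5, and 1517 against 1695. The share of members was lower at greater depth in both libraries. It was 8.70% (7.24 to 10.3) of wild-type barcodes with 5000 to 10000 UMIs, 6.45% (5.57 to 7.43) up to 20000, and 2.18% (1.64 to 2.83) above. In the humanized library these shares were 7.05%, 4.42% and 1.54%, each below the wild-type share of the same class. With every barcode thinned to 5000 UMIs before scoring, the 95th percentile was 4 UMIs, and ties put 1281 barcodes (7.94%) at or above it, among them 720 members (89.1%). The order of the depth classes stayed, with 11.95%, 9.70% and 5.57% of wild-type barcodes and 9.48%, 7.11% and 4.62% of humanized ones. Mitochondrial transcripts had medians of 0.104% of UMIs in members and 0.140% in the rest of the wild-type library, and 0.0846% and 0.0937% in the humanized one. Transcripts of ribosomal protein genes made up more of the members' RNA, with medians of 37.3% against 33.5%, and 39.2% against 35.5%. The part of depth in the gene results that follow was not tested beyond the alternatives on depth named with them.

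The name tumour cell could not be read from epithelial markers. Of the 14 epithelial genes (keratins, Epcam, claudins and others), 11 had no UMI in the 458 humanized members, and their summed level was 3.31 CPM (UMIs per 1000000 summed UMIs; exact Poisson interval 1.93 to 5.30) against 3.99 in the rest. In the wild-type library it was 82.5 CPM in members and 4.44 in the rest, and 1 barcode accounted for that. This barcode, with 16455 UMIs and a score of 13.4, held 391 of the 404 epithelial UMIs of wild-type members, among them 145 of Krt18, 93 of Krt8, 75 of Krt19 and 21 of Epcam, whereas no other member held more than 3. Without it the wild-type members stood at 2.66 CPM. It held 2 UMIs of Cryab and 57 of the 69 Hspb1 UMIs of the wild-type members. It was chosen after its values were seen.

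Markers of other cell types were low. Fibroblast markers summed to 183 CPM (171 to 196) in wild-type members against 244 in the rest, and to 207 (195 to 220) against 290 in the humanized library. Of that list 7 genes were measured, and the collagen genes Col1a1 and Col1a2 were at least 1.5-fold lower in members of both libraries. Of all measured genes 12.4% were lower. Pdgfra, also of the list, had log2 ratios, members over rest, of 0.27 (-0.43 to 0.90) and 0.42 (-0.31 to 1.06). The list's median was -0.15 for wild-type barcodes and -0.41 for humanized ones, where all measured genes had -0.25. A single barcode held 37.5% of the 16 Col1a1 UMIs of wild-type members, and another 29.2% of the 24 of humanized members. Endothelial markers summed to 14.5 and 11.5 CPM in members against 22.2 and 18.8 in the rest. Macrophage markers were higher in members of both libraries, at 18.6 CPM (15.0 to 22.8) against 9.32 and 14.0 (11.0 to 17.7) against 9.50, and the part of macrophage transcripts in the gene results was not tested. Dendritic cell markers summed to 7.97 and 10.3 CPM against 20.8 and 9.15. The T cell, NK cell, neutrophil, mast cell and erythroid lists each summed to at most 2.34 CPM in members. B cell markers summed to 0 UMIs in wild-type members, which allows up to 0.613 CPM at 3 counts, and to 8.38 CPM in humanized ones, against 8.26 in the humanized rest. In the macrophage list 1 gene was measured, Cd68, a lysosomal membrane protein. It held most of the list's UMIs in members, 61 of 91 in the wild-type and 45 of 72 in the humanized library. Cd68 stood at 12.5 CPM in wild-type members against 4.61 in the rest and 8.77 against 4.47 in humanized ones. Of the 16 genes of the macrophage list, 9 had a UMI in wild-type members and 5 in humanized ones. Adgre1, Mrc1, Fcgr1, C1qb and Itgam had no UMI in members of either library. Immune transcripts were kept out in part by the gate itself, and a mouse tumour line and host stroma cannot be told apart by these counts.

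Gene levels were compared as CPM of the UMIs summed over members and over the rest within each library, 4896082 against 121746252 UMIs in the wild-type and 5131442 against 132735503 in the humanized library. A gene was measured if it had at least 400 UMIs over members and rest in each library. It is called higher or lower if the ratio passed 1.5-fold in the same direction in both libraries. This contrast is the one the score cut, so its values are a description and no test was made. Of 10019 measured genes 175 were higher (1.75%) and 1241 lower (12.4%), and 4 were past 1.5-fold in opposite directions (0.0399%). The median log2 ratio of all measured genes was -0.25 in both libraries, which weighs the split towards lower calls. Centred on that median, 466 genes were higher (4.65%) and 431 lower (4.3%). Counts of called genes in the lists below are to be read against these shares. Most calls lost by this centring in the lists are named with their list. Choosing members on thinned scores gave 104 higher and 440 lower genes, and barcodes with 5000 to 10000 UMIs alone gave 53 and 296, on fewer UMIs.

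**Figure D2:**
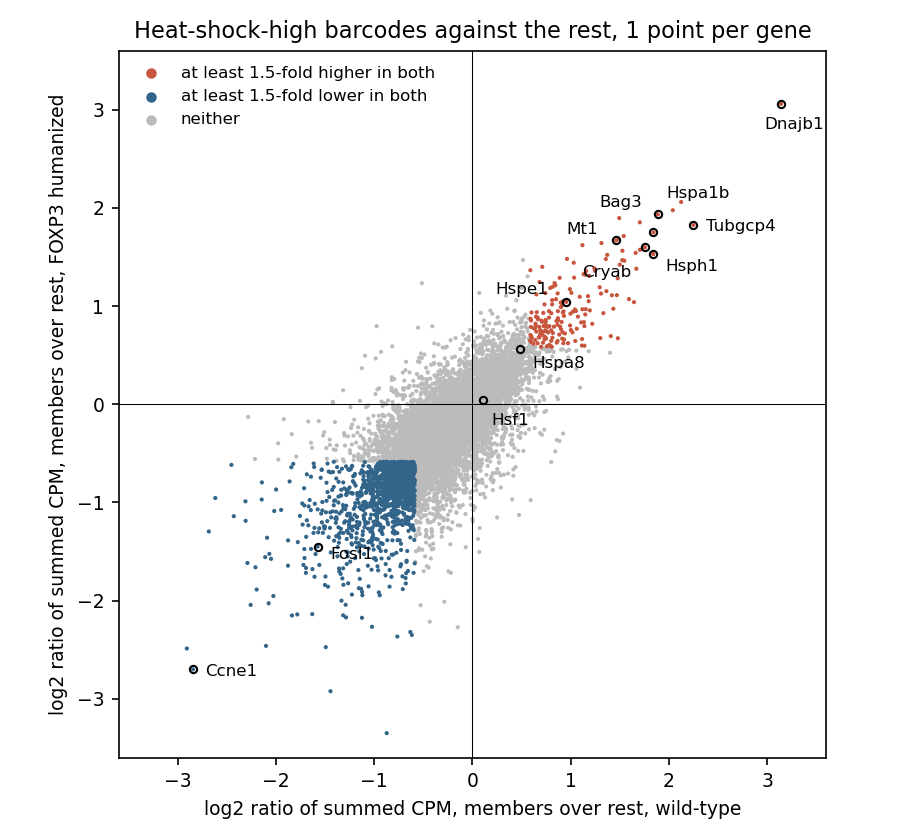
Log2 ratio of summed CPM, members over rest, in the wild-type library (horizontal) and in the FOXP3 humanized library (vertical), 1 point per measured gene, with genes past 1.5-fold in the same direction in both libraries in colour. Dnajb1, which is in the score, lies at 3.14 and 3.06, Bag3, Hsph1 and Cryab lie well below it at 1.53 to 1.84, and Hsf1 lies near 0.

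The score's own genes give the size of the selection. Dnajb1 stood at 1252 CPM in wild-type members against 142 in the rest and at 1289 against 155 in humanized ones, log2 ratios of 3.14 and 3.06. Hspa1b stood at 143 against 38.5 CPM and 108 against 28.3, log2 ratios of 1.89 and 1.93. Hspa1a had 43 UMIs in all members, 30 and 13 by library, and did not reach the gene filter. These values follow from the rule.

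Of the co-chaperones of HSP70 that are not in the score, 5 were higher in members of both libraries. Bag3, a nucleotide exchange factor that links HSP70 to selective autophagy, stood at 111 CPM in wild-type members against 30.8 in the rest, and at 102 against 30.3 in the humanized library, log2 ratios of 1.84 (1.71 to 1.97) and 1.75 (1.62 to 1.88). Hsph1, the HSP110 exchange factor, stood at 558 against 156 CPM and 434 against 150, log2 ratios of 1.84 and 1.53. With thinned scores the smaller of the libraries' log2 ratios was 1.44 for Bag3 and 1.25 for Hsph1, and in barcodes with 5000 to 10000 UMIs 1.44 and 1.61. Dnaja1 and Dnajb4 are J-domain proteins of the cytosol. Dnaja1 stood at 467 against 167 CPM and 401 against 165, and Dnajb4 at 79.2 against 27.5 and 67.4 against 22.8. St13, which binds HSP70 and helps hand clients to HSP90, was the fifth of these genes, at 477 against 300.4 CPM and 491 against 269. Another J-domain gene, Dnaja4, had too few UMIs for the filter but 23.1 CPM against 2.88 in wild-type and 11.5 against 1.89 in humanized barcodes, with log2 ratios of 3.00 (2.68 to 3.31) and 2.60 (2.17 to 3.02). Like Hspa1a, it lies outside the count of measured genes.

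Of the 20 measured genes of the HSP70 system 5 were higher and 3 lower, with medians of 0.079 and 0.14. Among all measured genes 1.75% were higher and 12.4% lower. The lower genes of the HSP70 system were Hspa14, a ribosome-associated HSP70, Bag2 and Hspbp1, both regulators of nucleotide exchange, at log2 ratios between -0.67 and -1.02. None of the 3 was lower after centring, which gave 7 higher and 0 lower. Hspa8, the constitutive HSP70 of the cytosol, stood at 3522 against 2516 CPM and 4974 against 3371, log2 ratios of 0.49 and 0.56, short of 1.5-fold unless centred. Bag1, Dnaja2, Dnajc7 and Hspa2 lay between -0.41 and -0.04 in both libraries. The ratios were thus uneven within the system.

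In the HSP90 system 1 gene was past 1.5-fold. Hsp90aa1, the stress-inducible HSP90, stood at 1645 against 1007 CPM and 1582 against 883, log2 ratios of 0.71 and 0.84, and was that gene among 14 measured. Centred, Fkbp4 and Cacybp joined it. The constitutive copy Hsp90ab1 stood at 7461 against 6074 CPM and 8133 against 6530, log2 ratios of 0.30 and 0.32. Chordc1, a HSP90-binding protein also known as a heat-shock target, lay at -0.26 and -0.27. The list's medians, 0.21 and 0.23, lay above those of the HSP70 system.

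Small heat-shock proteins were led by Cryab, alpha-B crystallin, which holds unfolded proteins without using ATP. It stood at 2286 CPM in wild-type members against 676 in the rest and at 1828 against 604 in humanized ones, log2 ratios of 1.76 (1.73 to 1.79) and 1.60 (1.57 to 1.63). Hspb8, the partner of Bag3 in selective autophagy, stood at 109 against 66.4 CPM and 103 against 66.7. Hspb6, the third measured gene, had log2 ratios of -0.20 and 0.32. Hspb1 was far under the filter, with 69 and 11 UMIs in members against 19 and 9 in the rest. Without the keratin-bearing barcode the wild-type members held 12 Hspb1 UMIs, or 2.46 CPM (1.27 to 4.30), and in the humanized library 72.7% of the members' Hspb1 UMIs came from 1 barcode.

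**Figure D3:**
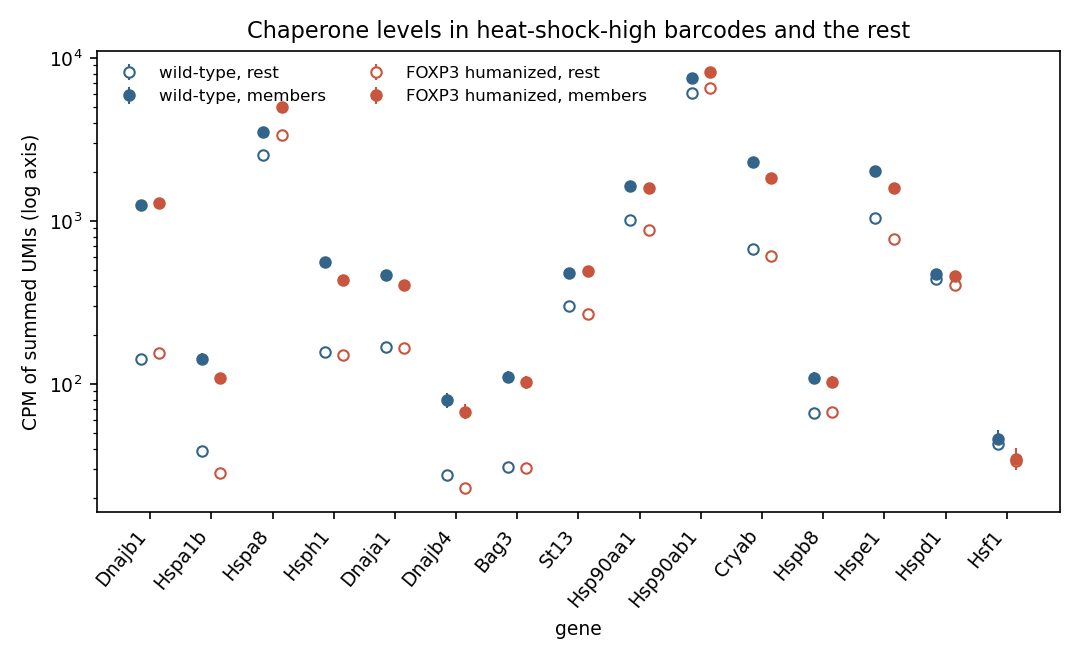
CPM of summed UMIs on a log axis for chaperones and for Hsf1, with filled points for heat-shock-high barcodes, open points for the rest, colours for the 2 libraries and bars for exact 95% Poisson intervals. Dnajb1, Bag3, Hsph1 and Cryab are separated several-fold in both libraries, whereas Hsp90ab1, Hspd1 and Hsf1 in members and rest lie close together.

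No heat-shock factor gene was past 1.5-fold, and 2 were measured. Hsf1 stood at 46.0 CPM (interval of its log2 ratio -0.09 to 0.30) against 42.7 in the wild-type library and at 34.7 against 33.7 (-0.18 to 0.26) in the humanized one. Hsf2 had log2 ratios of 0.17 (-0.27 to 0.58) and 0.30 (-0.16 to 0.73). Heat-shock factor 1 is known to be regulated mainly as a protein, and protein was not measured.

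Among chaperones of other compartments single genes stood out from lists that did not. Hspe1, the co-chaperonin of the mitochondrial matrix, stood at 2032 against 1048 CPM and 1597 against 775, log2 ratios of 0.96 and 1.04. Its partner Hspd1, which is transcribed from the same promoter region in the opposite direction, had 0.09 and 0.17 and was picked for this contrast after the values were seen. Of 13 mitochondrial chaperones Hspe1 alone was higher, and the list's medians were -0.29 and -0.32. Of 18 chaperones of the endoplasmic reticulum 1 was higher, the J-domain protein Dnajb9, at 49.6 against 20.1 CPM and 25.9 against 16.2, and the medians were -0.061 and -0.13. None of the 14 subunits of the cytosolic chaperonin and prefoldin was higher or lower. Pfdn5 was the exception after centring.

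Outside the chaperone lists, the largest ratios belonged to genes of mixed function. Tubgcp4, a subunit of the gamma-tubulin ring complex, stood at 60.9 against 12.8 CPM and 34.7 against 9.79, log2 ratios of 2.25 (2.07 to 2.43) and 1.83 (1.59 to 2.05). Zfand2a, a zinc finger protein of the proteasome that is induced by arsenite, stood at 107 against 36.8 CPM and 99.8 against 30.4. Atf3, a stress-inducible transcription factor, stood at 147 against 45.0 CPM and 143 against 47.9. The kinase gene Map3k8, Dedd2, Lenep and Atosa followed, with log2 ratios between 1.47 and 1.90 and 9.19 to 37.4 CPM in members. The predicted genes C230096K16Rik and Gm49711 fell outside the rule for named genes but lay as high, at 2.04 and 1.98 and at 2.13 and 2.06, and are named after their values were seen. The sources used here do not say whether reads were counted by strand, so a gene and an overlapping neighbour may share reads.

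Ubiquitin and stress genes of other pathways were divided. Each list's counts stand beside 1.75% higher and 12.4% lower of all measured genes, or 4.65% and 4.3% after centring. Ubb, a polyubiquitin gene, stood at 2539 against 1407 CPM and 3025 against 1441, log2 ratios of 0.85 and 1.07, and was the only higher gene of the 34 measured in the ubiquitin and proteasome list. The list's 6 lower genes were all proteasome subunits, such as Psmb5 at -0.83 in both libraries, and none of them was lower after centring. In the integrated stress response, which slows translation and induces amino acid genes, Atf3, Ddit4 and Cebpb were higher. Trib3, Sesn2, Psat1, Phgdh and Slc7a5 were lower, for example Trib3 at 42.3 against 86.3 CPM and 28.1 against 74.4. Of 18 genes in that list 3 were thus higher and 5 lower, or 4 and 3 after centring, which ended the calls of Psat1 and Phgdh. Targets of the oxidant sensor NRF2 were split as well. Of 16 measured genes Hmox1 and Ftl1 were higher, both also tied to haem and iron, and Txnrd1, Srxn1, G6pdx and Me1 lower. All but Srxn1 kept that call after centring.

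Metallothioneins, small proteins that bind zinc and copper, were higher in members by as much as many chaperones. Mt1 stood at 12891 against 4674 CPM and 13832 against 4351, log2 ratios of 1.46 and 1.67. Mt2 stood at 4488 against 1889 CPM and 4079 against 1590, log2 ratios of 1.25 and 1.36. The transcription factor gene Mtf1, which drives them on zinc, had 0.06 and 0.10, and the zinc exporter gene Slc30a1 had 0.17 and 0.82, with UMIs of 24 and 34 in members. Barcodes in the top 5% by Mt1 and Mt2 were 808, like the members, and 214 were in both sets, or 26.5% of each. Of the rest 3.87% were in the metallothionein set. The overlap was 24.0% of wild-type and 28.4% of humanized members.

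Several heat-shock genes outside the score stood higher in members inside the metallothionein set than in members outside it. The 84 wild-type members inside it stood at 2749 CPM of Cryab against 2135 in the 266 outside it, and the 130 humanized ones at 2088 against 1734 in 328. Hsph1 stood at 678 against 519 CPM and 467 against 423. Dnaja1 stood at 550 against 440 CPM and 435 against 389, and Hspa8 at 4386 against 3240 and 5410 against 4817. Bag3 was not higher inside the set, at 101 against 114 CPM and 102 against 102. Of the score's own genes, Dnajb1 was higher inside the set, at 1489 against 1174 CPM and 1476.5 against 1221. Members inside and outside the set thus also differed in the main gene of the score. Hspa1b was lower inside the set, at 102 against 156 CPM and 86.6 against 116. No test was made of these differences. Members outside the metallothionein set still carried 9091 and 9292 CPM of Mt1, against 4674 and 4351 in the rest.

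Stress sets of other kinds, scored in the same way, shared fewer barcodes with the members. The set scored on Chac1, Trib3, Ddit3 and Atf3 shared 84 barcodes with the members, 10.4% (8.38 to 12.7) of each set against 4.72% of the rest, and it includes Atf3, a gene that was itself higher in members. The set scored on the immediate-early genes Fos, Jun, Egr1 and Ier2, which dissociation of tissue is known to induce, shared 32 barcodes, 3.96% (2.72 to 5.55) of each set against 5.06% of the rest. By library it held 4.57% of wild-type members against 4.09% of the rest, and 3.49% of humanized members against 5.73%. Of 23 measured immediate-early genes none was higher and 2 were lower, Fosl1 and Egr3, against 1.75% and 12.4% of all measured genes. The list's summed level was 3383 CPM in members against 3366 in the rest of the wild-type library and 3212 against 3485 in the humanized one. Centring gave 2 higher and 2 lower, against 4.65% and 4.3% of all measured genes. Fosl1, a subunit of AP-1, stood at 101 against 302 CPM and 92.0 against 251.

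The lowest ratios included those of the S-phase genes Ccne1 and E2f8. Ccne1, the cyclin that starts S phase, had 5 UMIs in the members of each library, at 1.02 against 7.33 CPM and 0.974 against 6.33, log2 ratios of -2.84 (-4.47 to -1.62) and -2.70 (-4.33 to -1.47). E2f8, a repressor active in S phase, stood at 3.27 against 15.6 CPM and 2.73 against 11.2. Of 24 measured S-phase genes 9 were lower and none higher, against 12.4% lower of all measured genes, with medians of -0.57 and -0.66, and their summed level was 1130 CPM (1101 to 1160) against 1631, and 928 (902 to 955) against 1452. After centring Rrm2, a subunit of ribonucleotide reductase, Tyms, the thymidylate synthase, Cdc6, Ung and Rpa2 were still lower, and Rrm1, Uhrf1 and Tipin were among those that were not. Of 30 measured G2 and mitosis genes 4 were lower, Plk1, Aurkb, Birc5 and Nuf2, a share near the 12.4% of all measured genes. After centring Nuf2 alone of the 30 was lower, against 4.3% of all measured genes. Their summed level was 1348 CPM (1316 to 1381) against 1984, and 1453 (1420 to 1486) against 1908. The other genes with the lowest ratios were Bbs12, with 0 UMIs in wild-type members (up to 0.613 CPM at 3 counts) and 4 in humanized ones, Otub2, Pigw, Nppb, Cgref1 and D11Wsu47e. All but Nppb, which encodes a natriuretic peptide and stood at 10.4 against 42.4 CPM and 14.6 against 56.6, had fewer than 10 UMIs in the members of each library. In barcodes with 5000 to 10000 UMIs alone, Ccne1 was at -0.32 and Otub2 at 0.58. The medians of both cell cycle lists stayed negative with thinned scores, at -0.34 and -0.48 for S phase and -0.23 and -0.32 for G2 and mitosis. They were also negative in barcodes with 5000 to 10000 UMIs. The median of all measured genes, -0.25 for the members as defined, was not taken under these 2 settings. Whether the lists lay below genes in general there was thus not tested.

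Further lists set the frame. Their counts, too, stand beside 1.75% higher and 12.4% lower of all measured genes, or 4.65% and 4.3% after centring. Of 23 measured genes of hypoxia and glycolysis 2 were higher, Slc2a1, the glucose carrier, and Bnip3, a mitophagy receptor, and 8 after centring, with medians of 0.23 and 0.27. Of 11 genes of MHC class I presentation and of 12 p53 targets none was higher or lower, although B2m reached 1.5-fold after centring. Of 13 NF-kappaB targets the feedback inhibitor Nfkbia was higher, at 502 against 305 CPM and 842 against 442, and Nfkbie lower. Among nuclear-retained RNAs Neat1 was higher, at 345 against 192 CPM and 282 against 122, Kcnq1ot1 was lower, and Malat1 stayed within 1.5-fold at 0.20 and 0.54. Of 84 measured ribosomal protein genes, a list added after the values were seen, 1 was lower, Rpl7l1, and none higher, and after centring none was lower. The medians were 0.13 and 0.12.

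**Figure D4:**
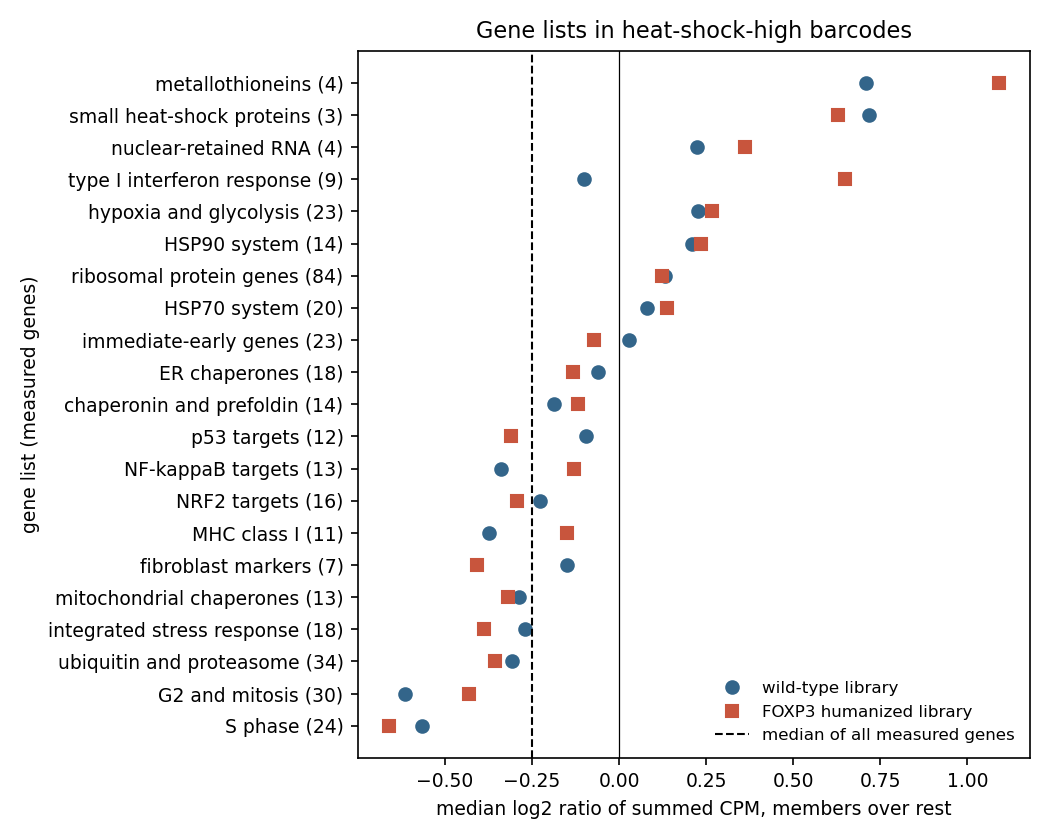
Median log2 ratio of summed CPM, members over rest, for each list with at least 3 measured genes (number in brackets), with circles for the wild-type and squares for the FOXP3 humanized library and the median of all measured genes, -0.25, dashed. Metallothioneins and small heat-shock proteins lie farthest to the right in the wild-type library, metallothioneins and the type I interferon list in the humanized one. S phase and G2 and mitosis lie farthest to the left in both, and the interferon list lies on opposite sides of 0 in the 2 libraries.

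Because Dnajb1 dominated the score, barcodes were also chosen on each part of it and read on the genes not used for choosing. Barcodes in the top 5% by Dnajb1 alone held 99.9 CPM of Hspa1b against 40.3 in the others of the wild-type library and 78.1 against 29.3 in the humanized one, log2 ratios of 1.31 (1.17 to 1.45) and 1.41 (1.26 to 1.56). Barcodes in the top 5% by Hspa1a and Hspa1b alone held 403 CPM of Dnajb1 against 172 and 444 against 189, log2 ratios of 1.23 (1.17 to 1.28) and 1.23 (1.17 to 1.30). The parts were thus linked in both directions, but the sets were mostly different barcodes. Of the 808 barcodes in each set 138 were in both, or 17.1%, where each set was 5.01% of the gate. The part of counting error in this overlap was not tested. Across barcodes of the gate, Pearson's r between the Dnajb1 and Hspa1b levels was 0.19 over 6606 wild-type and 0.15 over 9537 humanized barcodes, which share library and depth, and that between Dnajb1 and Hsph1 was 0.47 and 0.42. By rank (Spearman's rho) the pair with Hspa1b had 0.16 and 0.14, and that with Hsph1 0.26 and 0.25. With the metallothionein gene Mt1, Dnajb1 had r of 0.40 and 0.42 and rho of 0.37 and 0.37. With Cryab r was 0.40 and 0.36, and with Bag3 0.29 and 0.27.

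Barcodes chosen on the HSP70 genes alone differed less from the others in the remaining genes. They were also chosen on fewer UMIs. The 418 wild-type ones held 1747 UMIs of Hspa1b and 46 of Hspa1a, and the 390 humanized ones 1147 and 29. Chosen on Dnajb1, 334 wild-type barcodes held 6064 of its UMIs and 474 humanized ones 6847. The part of counting error in this contrast was not tested. In barcodes chosen on the HSP70 genes Bag3 was at 1.20 and 1.31, against 1.77 and 1.69 in barcodes chosen on Dnajb1. Hsph1 was at 0.94 and 0.90 against 1.82 and 1.52, and Cryab at 0.61 and 0.61 against 1.83 and 1.60. Hspa8 was at 0.018 (-0.0036 to 0.041) and 0.14 against 0.54 and 0.58. With the HSP70 genes 51 measured genes were higher and 23 lower in both libraries, against 177 and 1322 with Dnajb1. With the HSP70 genes the medians of S phase were -0.073 and -0.15, and those of G2 and mitosis 5.8e-05 and -0.022. Col1a1, Col1a2 and Kcnq1ot1, lower in members, were not lower there, at 0.22, 0.028 and 0.43. The share of barcodes chosen on the HSP70 genes was 6.33% for wild-type and 4.09% for humanized barcodes, while on Dnajb1 it was 5.06% and 4.97%.

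**Figure D5:**
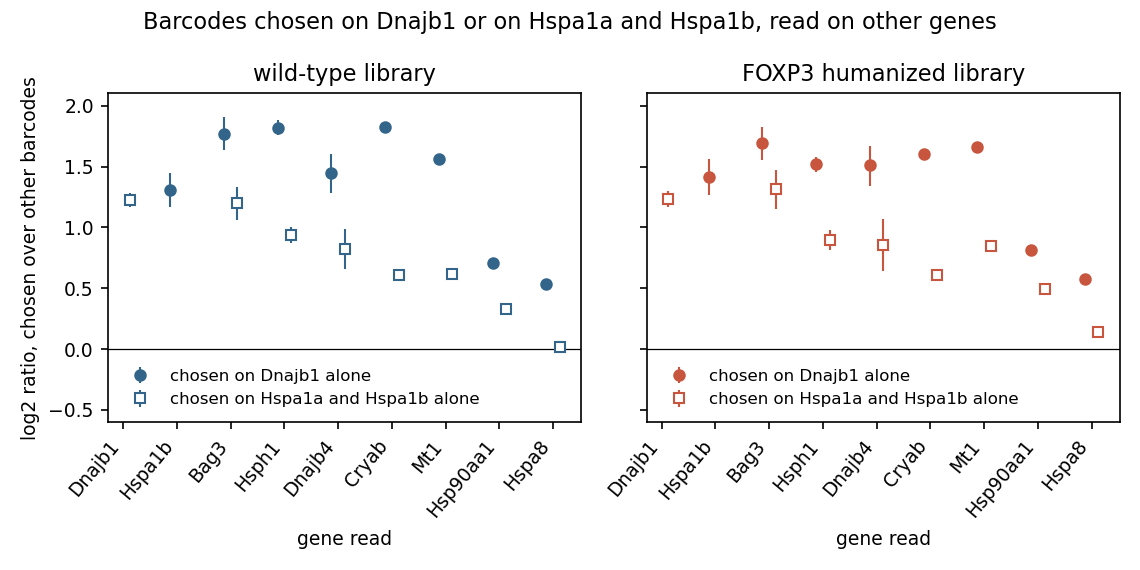
Log2 ratio of summed CPM, chosen over other barcodes, for barcodes in the top 5% by Dnajb1 alone (filled circles) and by Hspa1a and Hspa1b alone (open squares), in each library, with exact 95% conditional intervals. Each gene was left out where it was used for choosing. Bag3, Hsph1 and Cryab lie lower in barcodes chosen on the HSP70 genes, and Hspa8 lies near 0 there.

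A split of the UMIs showed how far the choice repeats within a barcode at this depth. Each barcode's UMIs were split at random into 2 parts of like size, and the top 5% were chosen on one and read on the other. Of the barcodes chosen, 58.1% of wild-type and 52.5% of humanized ones were also past the 95th percentile in the part not used for choosing. Their median score there was 10.5 and 9.53, against 12.6 and 12.8 in the part used for choosing and 1.35 and 1.37 in the other barcodes. Dnajb1 there had log2 ratios of 2.90 (2.84 to 2.96) and 2.75 (2.69 to 2.81), and Bag3, Hsph1 and Cryab had between 1.499 and 1.78.

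Between genotypes, members were compared as the study's design allows, with values of 1 library each. Dnajb1 stood at 1252 CPM in wild-type and 1289 in humanized members, a log2 ratio of 0.042 (-0.0084 to 0.092), and at 0.13 in the rest. Members of both libraries passed the same cut on a score that was mostly Dnajb1, so its level in members is largely set by the rule. Hspa1b, also in the score, was lower in humanized members, with log2 ratios of -0.40 (-0.56 to -0.24) in members and -0.45 in the rest. Hspa8 was higher in humanized members, at 4974 against 3522 CPM, by 0.50 (0.47 to 0.53), and by 0.42 in the rest. Hsph1, Cryab and Dnaja1 were lower in humanized members, by log2 ratios of -0.36, -0.32 and -0.22, against -0.050, -0.16 and -0.023 in the rest. None of these reached 1.5-fold. The differences between members and rest in these ratios were not tested.

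Of 6810 genes with at least 100 UMIs over all members, 51 were at least 1.5-fold higher (0.749%) and 473 lower (6.95%) in humanized members, with an interval that excluded no difference. In the rest, by the same rule and over the same genes, 27 were higher (0.396%) and 228 lower (3.35%). The median log2 ratio of these genes was -0.14 in members and in the rest, and centring changed the members' split to 121 higher and 250 lower. Member sums were smaller, 4896082 and 5131442 UMIs against 121746252 and 132735503 in the rest. Counting error is thus larger in members, so the counts of called genes in members and rest are not like for like. Cxcl1, a neutrophil-attracting chemokine, was the gene farthest apart upward, at 20.0 CPM in wild-type and 89.4 in humanized members, a log2 ratio of 2.16 (1.84 to 2.49), against 27.8 and 69.0 in the rest, or 1.31. Dapk1, a death-associated kinase, Stra6, Mars1 and Fam180a followed at 1.02 to 1.12 in members and 0.76 to 1.09 in the rest. Of 9 measured NF-kappaB targets 4 were higher in humanized members, and the median was 0.50 in members against 0.0023 in the rest. At the other end Krt18 had 146 UMIs in wild-type and 0 in humanized members (up to 0.585 CPM at 3 counts), of which 99.3% came from the keratin-bearing barcode. Or8b40, the noncoding RNA Bc1, AA388235 and Cog5 were next, with log2 ratios of -1.80, -1.66, -1.59 and -1.58, against -1.20, -1.71, -1.29 and -0.44 in the rest.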

How the data were processed

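The deposited matrices are raw counts, as UMIs of each gene in each barcode. Per the file headers PISA 1.0 wrote them. The submitters' processing notes name GRCm39. The sources used here name no aligner, annotation, strand setting or cell caller. Of 4 samples, the 2 cDNA libraries were analysed and 2 oligo libraries were not used here. They held 7691 wild-type and 11087 humanized barcodes, with medians of 15368 and 11575 UMIs, and 22649 of 26172 genes were listed for both. Barcode names in the files are serial numbers, so the 1551 names found in both libraries do not mark shared cells. Under 5000 UMIs were 873 and 1193 barcodes, and 212 and 357 deeper ones held a UMI of the 7 gate genes. No doublet caller was run, and 15 members (1.86%) were in the top 5% of UMIs of their library.

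Counts were summed over members and rest and scaled to CPM, with exact Poisson intervals, exact conditional intervals for ratios and exact binomial (Clopper-Pearson) intervals for shares, at 95%. A sum of 0 was set to 3 counts in a ratio. Since each genotype had 1 library, no test was run. The members and all 32 gene lists were chosen with earlier results of these data known. Named genes were every member of the heat-shock lists, the 12 highest and 8 lowest other genes by the ratio nearer to 1 (predicted, ribosomal and mitochondrial genes left out), up to 4 genes per further list, and up to 5 each way between genotypes. Promoters are from RefSeq. Cryab, Hspa8, Hsp90aa1 and Map3k8 were not matched. The code was tested on simulated data. Python 3.11.15, numpy 2.4.6, scipy 1.17.1 and pandas 2.3.3 were used.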

Additional observations from a re-analysis of the deposited data

Results flagged for a closer look

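The type I interferon list lay on opposite sides of 0 in the libraries, with median log2 ratios of members over rest of -0.10 for wild-type and 0.65 for humanized barcodes over 9 measured genes. The immediate-early list did the same at 0.027 and -0.072. These differences between the libraries were not tested, and no gene of the interferon list was past 1.5-fold in both. Its summed level was 336 CPM (320 to 352) in wild-type members against 269 in the rest, and 328 (313 to 344) against 204 in the humanized library, so the list's sum and its median differ in sign in the wild-type library.

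Barcodes outside the gate also reached the cut of 8.38. Among barcodes under 5000 UMIs without gate-gene UMIs, 11.1% (8.98 to 13.6) of wild-type and 10.7% (8.84 to 12.7) of humanized ones did so, at median depths of 2734 and 2976.5 UMIs. The median score of these shallow barcodes was 0 in both libraries. At such depths very few UMIs of the score's genes reach the cut, so these shares are not like for like with those of the gate. Among barcodes of any depth with a UMI of the 7 gate genes, 7.48% (4.85 to 10.9) and 11.9% (9.29 to 15.0) did so, at median depths of 13639 and 11230 UMIs.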

How the results depend on the processing

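The data hold 1 library per genotype, and members are not replicates. No paired analysis was possible because each genotype has 1 library. The gate and the cut fix how many barcodes are members, and shallow barcodes pass the cut with as few as 5 UMIs of the score. The log2 ratio of member shares left its interval in barcodes with at least 10000 UMIs (-0.35) and with the HSP70 genes alone (-0.63), and stayed within it under the others. Against 175 genes higher and 1241 lower, the pooled 90th percentile gave 721 lower, thinned scores 104 and 440, the HSP70 genes alone 51 and 23, 2-fold 44 and 225, filters of 100 UMIs 274 higher and of 2000 UMIs 72 and 595. Of alternatives chosen after seeing the data, centring gave 466 and 431 and barcodes with 5000 to 10000 UMIs 53 and 296. Leaving out the keratin-bearing barcode gave 177 and 1250. Between genotypes, against 51 higher and 473 lower, a filter of 50 UMIs gave 79 and 742, 2-fold 6 and 61, and centring 121 and 250. Chosen on the HSP70 genes alone, Kcnq1ot1 (0.43), Col1a1 (0.22), Col1a2 (0.028) and the wild-type median of G2 and mitosis (5.8e-05) turned positive, and Otub2 turned positive (0.58) in barcodes with 5000 to 10000 UMIs. The cause was not tested. Of 3102 values of named genes and list medians over 18 settings, 2572 stayed within their interval or the distance between libraries, 525 moved past it and these 5 turned. Part of the 2572 could not move. The filters of 100 and 2000 UMIs leave the ratios of the 133 named genes unchanged. A limit of 10% mitochondrial UMIs and 300 genes removed no barcode, so its 173 values repeat the main ones.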
